A study of Mus musculus with 96 samples.

Results

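Gene expression in the thalamus was compared with that in the hypothalamus of uninjured, vehicle-treated mice at 3 days post-injury (dpi). The comparison used 4 thalamic and 4 hypothalamic libraries, 8 of the 96 RNA-seq libraries of the study, and it was chosen by their labels, over all genes. The study examined how candesartan, a blocker of the angiotensin AT1 receptor, alters the brain's response to controlled cortical impact, a model of traumatic brain injury. The 8 libraries come from mice with neither injury nor candesartan, so they give the baseline against which those responses were set, region by region.

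Both groups were male C57BL/6 mice of 8 to 10 weeks with sham injury and vehicle (Sham + VH). The sham procedure was anaesthesia and a scalp incision without opening the skull, so the animals were not untouched controls. Vehicle (saline with sodium carbonate) was injected intraperitoneally at 6, 24 and 48 h, and the brains were taken at 3 dpi after perfusion with saline. The left, ipsilateral thalamus and hypothalamus were dissected and their RNA was sequenced in bulk. The labels number the libraries 1 to 4 in each region without saying whether a number marks the same mouse, and they do not say more of how the replicates differ, so the p-values measure the spread between these libraries. The thalamic libraries held 22889843 to 26100591 counts and the hypothalamic libraries 26898537 to 31253784. A second set of 8 Sham + VH libraries at 29 dpi, from mice that had 1 injection of vehicle at 6 h and an osmotic pump from 24 h, served as an independent comparison of the same 2 regions.

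The thalamus and the hypothalamus both arise from the embryonic diencephalon and lie next to each other around the third ventricle. The thalamus is made up mainly of glutamatergic relay neurons that project to the cortex, wrapped on one side by the GABAergic reticular nucleus and topped by the habenula. The hypothalamus is a mosaic of small nuclei, rich in GABAergic and peptidergic neurons, that controls the pituitary, feeding, temperature, sleep and reproduction, and its ventricular wall carries tanycytes, specialised glia that line the third ventricle. Each region has its own set of transcription factors, which are set up in the embryo and partly kept in the adult.

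Of 16651 genes tested, 4225 were differentially expressed (DEGs), which is 25.4% of them. Calls required a Benjamini-Hochberg false discovery rate (FDR) below 0.05 and a log2 fold change beyond 0.32 in either direction, by the quasi-likelihood F test of edgeR, and fold changes are given as thalamus minus hypothalamus. The calls split evenly, 2145 higher in thalamus (12.9% of the genes tested) and 2080 higher in hypothalamus (12.5%). Above 4-fold the balance was different. Of 341 genes past that size (2.05%), 226 were higher in thalamus (1.36%) and 115 in hypothalamus (0.691%). The 2 groups of libraries did not overlap for 329 of the 341 genes, and for 34.3% of all genes tested. Scaling by library totals alone moved the median log2 fold change of all genes from -0.017 to -0.11 and the share of calls that were higher in thalamus from 50.8% to 36.0%, so small differences depend on the scaling. At more than 4-fold the share went from 66.3% to 61.1%.

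Summed markers of each region were higher in the libraries labelled as that region, in lists chosen with earlier results of these data known. The summed level of 16 thalamic transcription factors was 1226 to 1727 CPM (counts scaled to a common library size) in the thalamic and 200.1 to 247 in the hypothalamic libraries. That of 28 hypothalamic transcription factors was 89.9 to 129 and 317 to 479.6. Markers of cortical and hippocampal neurons summed, over 12 genes, to 284 to 384 CPM in thalamus and 197 to 293 in hypothalamus, against 3687 to 4171 in the 4 hippocampal Sham + VH libraries. Slc17a7, which thalamic neurons express as well, made up 137 to 242 CPM of the thalamic sums. Genes of the Hox clusters, which mark hindbrain and spinal cord, were near 0, at 0.039 to 0.637 CPM over 11 genes in thalamus and 0 to 0.756 in hypothalamus.

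The libraries of a region were not alike, however. The first principal component, with 58.1% of the variance, separated the regions. The second, with 22.0%, set hypothalamic replicates 1 and 2 apart from replicates 3 and 4, and the third, with 6.79%, set thalamic replicates 1 and 3 apart from 2 and 4. Choroid plexus genes were high in thalamic replicates 1 and 3 and habenula genes in replicates 2 and 4. Tanycyte, ependymal and pituitary genes were high in hypothalamic replicates 3 and 4 or in replicate 4 alone, and myelin genes were lowest in the same 2 libraries. The values are given with each gene group below. In tissue dissected by hand, more cells of a type and more RNA per cell cannot be told apart.

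**Figure D1:**
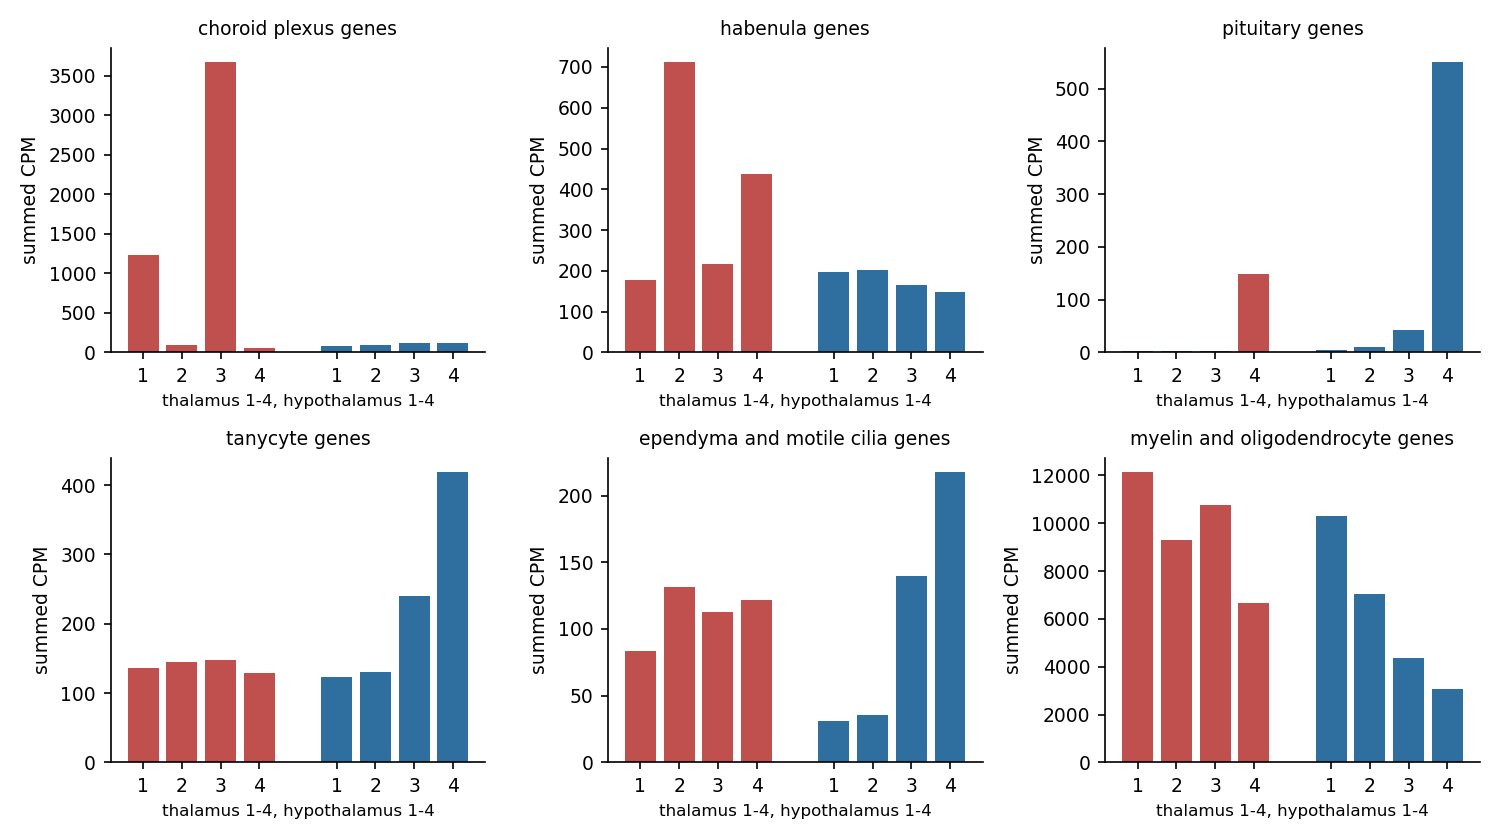
Summed CPM of 6 gene groups (y axis, linear from 0) in each of the 8 Sham + VH libraries at 3 dpi, thalamic replicates 1 to 4 in red and hypothalamic replicates 1 to 4 in blue. Choroid plexus genes reach 3672 CPM in thalamic replicate 3 and stay at or below 118 in all 4 hypothalamic libraries, whereas pituitary genes reach 549.9 CPM in hypothalamic replicate 4.

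Thalamic transcription factors were higher in thalamus without exception among those measured well enough to test. All 15 tested genes of the list were called, beside 12.9% of all genes in that direction, 10 of them above 4-fold, with a median log2 fold change of 2.34 against -0.017 over all genes. Tcf7l2, a nuclear effector of Wnt signalling that marks adult thalamus, was 264, 347, 261 and 268 CPM in thalamic replicates 1 to 4 and 25.8, 15.1, 23.8 and 13.3 in the hypothalamic ones, a log2 fold change of 3.87 ± 0.22 (SE, FDR = 7.9e-06). Its relative Lef1 was 56.4 ± 13.2 and 6.17 ± 0.956 CPM (mean ± SD, n = 4 each). Gbx2, a homeobox gene of developing thalamic neurons, was 13.00, 15.5, 11.4 and 16.9 CPM in thalamus and 0.324, 0.183, 0.615 and 0.0343 in hypothalamus, a 47.2-fold difference in the fit. Lhx9, a LIM homeobox gene, differed by 3.74 ± 0.32 on the log2 scale, Zic1, a zinc finger gene of the dorsal neural tube, by 2.29 ± 0.19, and the nuclear receptor Rora by 2.74 ± 0.13. Shox2, a homeobox gene, was not in the list but was among the 10 largest differences. It measured 136, 151, 130.2 and 103 CPM in thalamus and 3.96, 1.54, 2.43 and 0.789 in hypothalamus (5.90 ± 0.34, FDR = 8.2e-06). In each of these genes the lowest thalamic library lay above the highest hypothalamic one. The smallest difference of the list was that of Irx5 (0.76 ± 0.23). Olig3 was too low to test, at 0.354 CPM in thalamus on average and 0.0543 in hypothalamus. Without any 1 library, 14 or 15 members were called.

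The promoters of Shox2, Gbx2 and Tcf7l2 are printed because these 3 factors are among the clearest marks of the thalamic libraries. Each window runs from 250 bases before to 50 bases after an annotated start in RefSeq (GRCm38.p6), 5′ to 3′ on the strand of the gene. Capitals mark short motifs found on either strand. The search covered TATAAA (the TATA box), CTTTGA (the core bound by TCF/LEF factors such as Tcf7l2), CAAGTG (the core bound by NKX2-1), AAGGTCA (a half-site of NR5A receptors), TAATTA (bound by many homeodomains) and TGACGTCA (the cAMP response element). These letters occur in 7.23%, 11.9%, 11.5%, 3.33%, 2.64% and 2.99% of the windows of the 11548 tested genes that have an entry. With entries for fewer than 8 in 10 of the tested genes, motif shares were not compared between gene sets. The Shox2 window lies at chr3:66981722-66982021, minus strand, that of Gbx2 at chr1:89931127-89931426, minus strand, and that of Tcf7l2 at chr19:55741560-55741859, plus strand.
Shox2: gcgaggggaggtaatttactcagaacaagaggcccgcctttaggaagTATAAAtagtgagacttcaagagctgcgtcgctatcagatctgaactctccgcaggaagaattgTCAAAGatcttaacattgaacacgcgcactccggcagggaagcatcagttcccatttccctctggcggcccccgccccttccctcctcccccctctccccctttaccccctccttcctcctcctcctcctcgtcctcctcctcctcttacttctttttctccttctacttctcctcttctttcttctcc
Gbx2: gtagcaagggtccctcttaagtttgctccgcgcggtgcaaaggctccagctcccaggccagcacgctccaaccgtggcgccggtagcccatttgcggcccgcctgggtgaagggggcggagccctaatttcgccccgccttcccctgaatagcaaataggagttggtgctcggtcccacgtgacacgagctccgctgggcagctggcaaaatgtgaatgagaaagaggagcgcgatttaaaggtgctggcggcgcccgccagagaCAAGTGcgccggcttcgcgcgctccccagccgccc
Tcf7l2: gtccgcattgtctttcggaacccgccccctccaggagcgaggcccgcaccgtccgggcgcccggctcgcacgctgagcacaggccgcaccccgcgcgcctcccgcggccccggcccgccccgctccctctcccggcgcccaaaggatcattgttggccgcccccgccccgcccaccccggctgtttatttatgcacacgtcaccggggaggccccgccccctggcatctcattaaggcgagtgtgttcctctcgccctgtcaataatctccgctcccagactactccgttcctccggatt
The Shox2 window holds the letters TATAAA at base 48, far before the start, and whether they act as a TATA box was not tested. It also holds a TCF/LEF core, read on the other strand, at base 112, and 53.3% of its bases are G or C. The Gbx2 window (64.7% G or C, 27 CG dinucleotides) holds the NKX2-1 core at base 266, after the start. The Tcf7l2 window (70.0% G or C, 34 CG dinucleotides) holds none of the 6.

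Relay neuron genes followed the same direction. Of 20 genes, 18 were higher in thalamus (all genes, 12.9%) and 12 of these above 4-fold, none was higher in hypothalamus, and the median log2 fold change was 2.37. Prkcd, protein kinase C delta, at chromosome 14, 30595354 to 30626210 (mm10), was 829, 751, 718 and 407 CPM in thalamus and 25.4, 14.7, 13.95 and 11.5 in hypothalamus (5.37 ± 0.32, FDR = 8.3e-06). Tnnt1, a slow muscle troponin at chromosome 7, 4504570 to 4516382, was 62.5, 49.4, 45.5 and 42.7 and 1.87, 0.55, 0.861 and 0.961 CPM. Ramp3, which modifies the ligand preference of calcitonin-family receptors, was 165, 132, 114 and 90.02 and 9.9, 3.74, 3.32 and 3.47 CPM. In hypothalamus, replicate 1 had the highest value of all 3 genes. The tyrosine phosphatase Ptpn3 was 349 ± 62.9 and 17.4 ± 6.39 CPM, the actin-binding protein gene Synpo2 182 ± 36.2 and 10.4 ± 1.9, and Ntng1, which encodes the axonal adhesion protein netrin-G1, 373 ± 37.6 and 50.7 ± 2.98. By mean CPM over all 8 libraries the first 3 members were Adarb1 (929 ± 146 and 224 ± 32.1), which encodes the RNA-editing enzyme ADAR2, Cplx1 (815 ± 219 and 329.6 ± 150.03), which encodes the synaptic protein complexin 1, and Slc17a6 (567 ± 56.1 and 261 ± 19.2), the vesicular glutamate transporter VGLUT2, although in thalamus alone Prkcd stood above Slc17a6. Cplx1 was lowest in replicate 4 of both regions (1002, 828, 926 and 505 CPM in thalamus, 505, 392, 259 and 162 in hypothalamus) and was not called when thalamic replicates 1 and 3 were left out together (1.02, FDR 0.14). Zfhx3, a transcription factor (-0.058), and Cnih3, an AMPA receptor auxiliary subunit (0.24), were the 2 members that were not called.

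The 10 largest differences toward thalamus, among genes above 4-fold with at least 5 CPM in thalamus and no overlap, were Gm5741, Ttr, Abhd12b, Atp2a1, Pou4f1, Gabrd, Shox2, Slc17a7, Gpr151 and Gbx2. Abhd12b, an alpha/beta hydrolase gene at chromosome 12, 70154142 to 70183887, was 46.3, 39.96, 22.2 and 23.1 CPM in thalamus and 0.756, 0, 0.0615 and 0.137 in hypothalamus. Atp2a1, the fast-twitch muscle calcium pump SERCA1 at chromosome 7, 126445858 to 126463108, was 17.04, 14.98, 16.8 and 6.95 and 0.18, 0.0733, 0.215 and 0 CPM. Both had to separate the regions to be listed. Pou4f1, Gpr151 and Gm5741 varied with the habenula genes and Ttr with the choroid plexus genes described below. Among all genes within these limits, those with the highest CPM in thalamus were Ttr, Adarb1, Nsmf, Prkcd and 6330403A02Rik. Nsmf, whose product carries signals from NMDA receptors to the nucleus, was 1004, 942, 882 and 609.9 CPM in thalamus and 243, 199, 201 and 191 in hypothalamus (2.04 ± 0.15). The gene 6330403A02Rik was 546, 714, 435 and 525 and 97.02, 76.97, 76.6 and 48.2 CPM (2.89 ± 0.22).

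**Figure D2:**
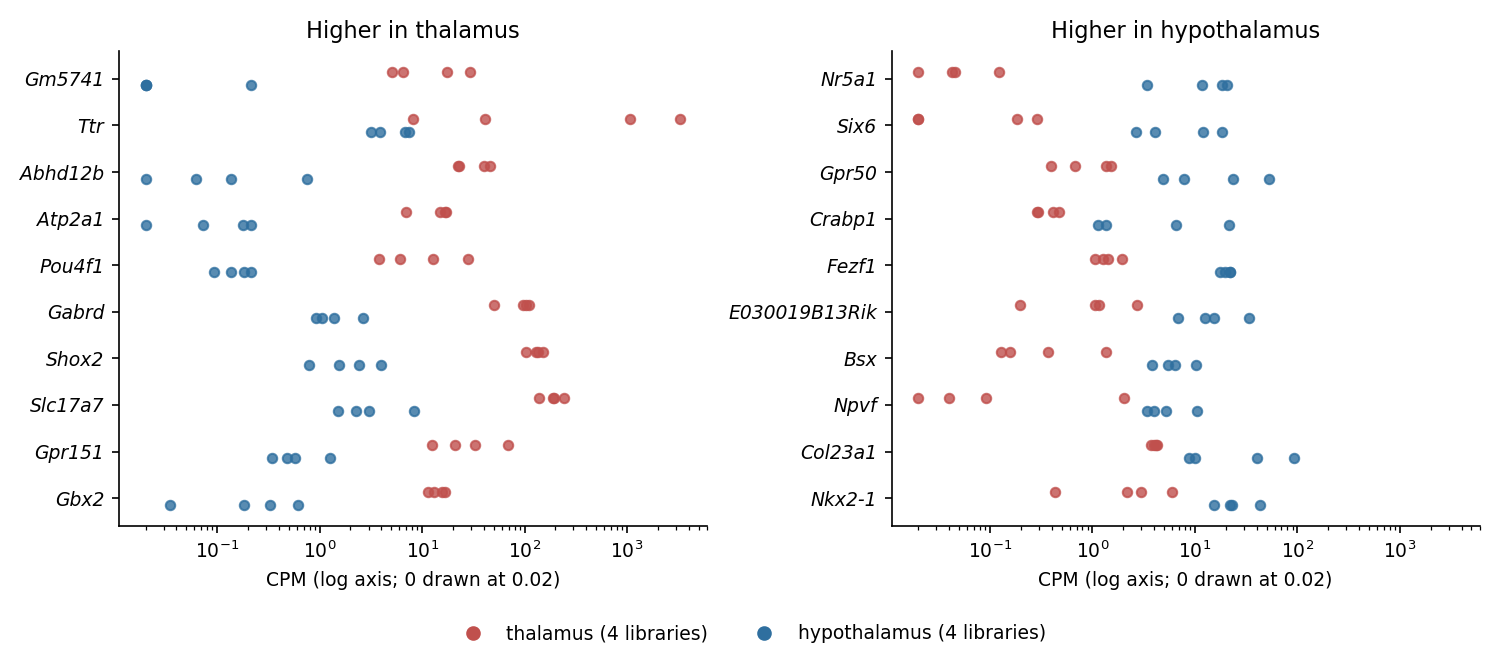
CPM per library (x axis, log scale, with 0 drawn at 0.02) of the 10 largest differences in each direction, each dot 1 of the 4 thalamic (red) or 4 hypothalamic (blue) Sham + VH libraries at 3 dpi. The genes were chosen to have no overlap between the colours, and the thalamic values of Ttr span 8.18 to 3305 CPM.

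The 2 regions also differed in the genes that define a glutamatergic terminal. Of 7 glutamate transport genes, 5 were higher in thalamus and 1 in hypothalamus (all genes, 12.9% and 12.5%). Slc17a7, the vesicular transporter VGLUT1 at chromosome 7, 45163949 to 45176142, was 189.7, 242, 195 and 137 CPM in thalamus and 8.36, 3.04, 1.51 and 2.27 in hypothalamus (5.67 ± 0.45, FDR = 3.0e-05). Slc17a6, VGLUT2, was 505, 621, 534 and 608 and 240.5, 286, 254 and 265 CPM (1.12 ± 0.086). VGLUT2 is used by glutamatergic neurons of both regions, and its difference was smaller than that of VGLUT1. Per kb of exon, Slc17a6 stood at 105 CPM in thalamus and Slc17a7 at 35.4, against 48.4 and 0.703 in hypothalamus. Slc17a8, VGLUT3, was far lower (10.2 ± 4.21 and 3.47 ± 1.94 CPM) and was not called without thalamic replicate 2 (1.45, FDR 0.053). Slc1a1, a neuronal glutamate uptake carrier (0.54 ± 0.062), was higher in thalamus. Of the 2 astrocyte carriers, Slc1a3 (GLAST) was higher in hypothalamus (-0.37 ± 0.076), whereas Slc1a2 (GLT-1) was 1536 ± 63.6 CPM in thalamus and 1261 ± 46.4 in hypothalamus and its log2 fold change of 0.28 ± 0.061 stayed under the size required for a call.

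Hypothalamic transcription factors were the counterpart. Of 28 genes, 26 were tested, 22 were higher in hypothalamus (16 above 4-fold) and 1 in thalamus, beside 12.5% and 12.9% of all genes, and the median log2 fold change was -2.17. Nr5a1, the nuclear receptor SF-1 of the ventromedial nucleus, at chromosome 2, 38692656 to 38714542, was 3.42, 11.7, 18.2 and 20.4 CPM in hypothalamic replicates 1 to 4 and 0.0425, 0, 0.0457 and 0.123 in thalamus. Six6, a homeobox gene of the ventral hypothalamus, was 2.67, 4.11, 12.1 and 18.3 and 0, 0, 0.183 and 0.288 CPM. Both were lowest in hypothalamic replicate 1, and Six6 was not counted once in thalamic replicates 1 and 2. Fezf1, a zinc finger gene of the same ventromedial nucleus, was 17.7, 21.9, 22.2 and 19.8 CPM in hypothalamus and 1.27, 1.06, 1.42 and 1.93 in thalamus (-3.84 ± 0.17, FDR = 2.3e-06). Hmx2 and Hmx3, 2 neighbouring homeobox genes, were 2.52, 2.31, 1.72 and 1.75 and 4.32, 4.07, 4.39 and 4.32 CPM in hypothalamus and at most 0.229 and 0.411 in thalamus. Nkx2-1, which specifies the ventral forebrain, was 15.3, 21.97, 23.1 and 43.7 CPM in hypothalamus and 2.97, 0.433, 2.19 and 5.92 in thalamus (-3.17 ± 0.56), and Bsx, a homeobox gene of feeding neurons, 3.85, 5.46, 6.45 and 10.3 and 0.128, 0.158, 0.366 and 1.36 (-3.68 ± 0.61). Thalamic replicate 4 had the highest thalamic value of both, and of Nr5a1 and Six6 as well. The factors with the highest mean CPM over the 8 libraries were Dlx1 (-1.93 ± 0.23), a homeobox gene of GABAergic neurons, Six3 (-0.78 ± 0.31, FDR = 0.078, not called), a forebrain homeobox gene, and Isl1 (-2.18 ± 0.19), a LIM homeobox gene of arcuate neurons. Sim1 and Otp, which mark neurosecretory neurons of the paraventricular nucleus, were 21.4 ± 2.53 and 14.8 ± 2.89 CPM in hypothalamus and 4.95 ± 4.75 and 2.41 ± 2.05 in thalamus. Sim1 was not called without hypothalamic replicate 3 (-2.03, FDR 0.056). The member that was higher in thalamus was Nhlh2, a basic helix-loop-helix gene (0.77 ± 0.25). It was not called without thalamic replicate 2 (0.57, FDR 0.11), thalamic replicate 4 (0.66, FDR 0.09) or hypothalamic replicate 1 (0.64, FDR 0.075), 2 (0.82, FDR 0.06) or 3 (0.79, FDR 0.077). Nkx2-2 was not called (-0.20 ± 0.12), and not tested were Rax (2.24 CPM in hypothalamus, 0.0205 in thalamus) and Nr0b1 (1.1 and 0.286).

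The promoters of Hmx3, of the vasopressin gene Avp and of Hdc, whose enzyme makes histamine, are printed in the same way as examples of genes higher in hypothalamus. The windows lie at chr7:131542713-131543012, plus strand, chr2:130582539-130582838, minus strand, and chr2:126618629-126618928, minus strand.
Hmx3: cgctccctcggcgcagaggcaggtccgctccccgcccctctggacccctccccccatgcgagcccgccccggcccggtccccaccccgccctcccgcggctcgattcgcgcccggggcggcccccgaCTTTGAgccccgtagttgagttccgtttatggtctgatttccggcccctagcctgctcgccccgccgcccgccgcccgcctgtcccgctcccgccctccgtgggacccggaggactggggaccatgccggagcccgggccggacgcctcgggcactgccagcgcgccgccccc
Avp: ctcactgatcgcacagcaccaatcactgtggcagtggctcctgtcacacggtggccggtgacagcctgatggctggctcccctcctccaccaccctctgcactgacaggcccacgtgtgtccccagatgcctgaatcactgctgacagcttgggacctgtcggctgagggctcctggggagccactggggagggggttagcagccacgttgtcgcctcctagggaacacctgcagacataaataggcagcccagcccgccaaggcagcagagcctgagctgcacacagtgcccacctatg
Hdc: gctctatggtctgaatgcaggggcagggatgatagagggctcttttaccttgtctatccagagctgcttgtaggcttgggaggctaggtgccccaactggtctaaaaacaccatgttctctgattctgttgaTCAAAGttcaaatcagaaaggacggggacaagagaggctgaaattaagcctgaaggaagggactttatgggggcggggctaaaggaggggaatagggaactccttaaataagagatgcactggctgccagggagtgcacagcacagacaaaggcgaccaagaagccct
The Hmx3 window (78.0% G or C, 39 CG dinucleotides) holds a TCF/LEF core at base 128, and the Hdc window (50.7% G or C, 3 CG dinucleotides) the same core on the other strand at base 133. The Avp window (63.0% G or C, 8 CG dinucleotides) holds none of the 6 motifs. The TCF/LEF core thus occurs in windows of genes from both directions.

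Most neuropeptide genes that were called were higher in hypothalamus. Of 34 genes, 28 were tested, 17 were higher in hypothalamus (8 above 4-fold), 1 in thalamus and 10 were not called, beside 12.5% and 12.9% of all genes in those directions, with a median log2 fold change of -1.70. With all 48 libraries of 3 dpi in the fit, 26 were called higher in hypothalamus. Avp, vasopressin, was 456, 435, 334 and 89.2 CPM in hypothalamic replicates 1 to 4 and 18.9, 6.15, 45.8 and 82.4 in thalamic replicates 1 to 4 (-3.10 ± 0.74, FDR = 0.01). Hypothalamic replicate 4 and thalamic replicate 4 were thus nearly equal, and Avp was not called when thalamic replicates 1 and 3 were left out together, a choice made after seeing the data (-2.89, FDR 0.11). Oxt, oxytocin, was 168, 204, 263 and 101 CPM in hypothalamus and 15.9, 6.03, 96.6 and 104 in thalamus and was not called (-1.73 ± 0.73, FDR = 0.098), although it was in that fit of 48 libraries (-1.72, FDR 0.021). Thalamic replicates 3 and 4 reached the level of hypothalamic replicate 4. Pmch, melanin-concentrating hormone of the lateral hypothalamus, was 670.3, 639.5, 397 and 272 and 385, 7.33, 251 and 110.04 CPM and was not called either (FDR = 0.21). Its values in thalamic replicates 1, 3 and 4 were far above that in replicate 2. Hcrt, orexin, was 278, 171, 72.9 and 23.9 CPM in hypothalamus and 56.6, 5.67, 60.7 and 11.5 in thalamus and was not called (FDR = 0.093). It was called without hypothalamic replicate 4 (-2.37, FDR 0.041) and with all 48 libraries in the fit (-2.02, FDR 0.021). Thalamic replicate 2 had the lowest thalamic value of Avp, Oxt, Pmch and Hcrt.

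Other peptides separated the regions in every library. Trh, thyrotropin-releasing hormone, was 162, 176, 164 and 99.7 CPM in hypothalamus and 15.6, 9.54, 28.4 and 26.4 in thalamus (-2.92 ± 0.33). Qrfp, a peptide gene of the lateral hypothalamus, was 1.69, 1.32, 3.23 and 2.99 and 0, 0.118, 0 and 0.0822 CPM (-5.34 ± 0.61). Npvf, which encodes the RFamide-related peptides, was 3.42, 4, 5.25 and 10.6 and 0, 0.0394, 0.0914 and 2.01 CPM (-3.41 ± 0.95, FDR = 0.021). It lost its call under DESeq2 (-3.43, FDR 0.053), without thalamic replicate 2 (-3.01, FDR 0.051) and without thalamic replicate 3 (-3.08, FDR 0.059). Cartpt, Pdyn, Gal, Nts, Vip, Ghrh and Sst, which are named here after their values were seen, were all higher in hypothalamus, with log2 fold changes from -2.70 (Vip) to -1.10 (Sst). Penk, enkephalin, was 116 ± 26.4 and 36.4 ± 12.7 CPM (-1.67 ± 0.28), and Tac1, which encodes substance P, 67.3 ± 9.15 and 21.2 ± 5.07 (-1.67 ± 0.16). The exception was Cck, cholecystokinin, a peptide of cortical and thalamic glutamatergic neurons as well, which was 134, 113, 121 and 97.5 CPM in thalamus and 14.1, 9.42, 11.2 and 13.9 in hypothalamus (3.26 ± 0.15, FDR = 2.4e-06). Pomc, Npy and Agrp, peptide genes of arcuate neurons, spread widely within the hypothalamus. Pomc was 3.31, 7.48, 35.2 and 180.4 CPM in hypothalamic replicates 1 to 4 and 1.27, 1.22, 1.05 and 27.4 in thalamus, and it was called without thalamic replicate 4 (-5.57, FDR 0.025) and with all 48 libraries in the fit (-2.84, FDR 0.0085). Pomc is expressed by the pituitary too, whose markers peaked in replicate 4. Npy was 6.01, 4.58, 29.2 and 64.4 CPM in hypothalamus and 8.37, 4.37, 6.22 and 2.38 in thalamus and just missed a call (-2.29 ± 0.80, FDR = 0.051). It was called without hypothalamic replicate 1 or 2 and in other fits, among them DESeq2 (-2.27, FDR 0.033), library totals alone (-2.42, FDR 0.042) and all 48 libraries in the fit (-2.28, FDR 0.00045). Agrp, which did not pass the filter on low counts, was 0.072, 0.147, 7.47 and 15.7 CPM in hypothalamus and 0.0425, 0.118, 0.183 and 0.164 in thalamus.

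Of 14 peptide processing and dense-core granule genes, 4 were higher in hypothalamus, 2 in thalamus and 8 were not called, beside 25.4% of all genes called. Pcsk1, a prohormone convertase, was 58.3 ± 4.91 CPM in hypothalamus and 25.2 ± 5.2 in thalamus (-1.21 ± 0.14), whereas its relative Pcsk2 was 279 ± 23.7 and 600.2 ± 61.5 (1.10 ± 0.09). Pam, which amidates peptides (-0.94 ± 0.14), and Scg2, a granin (-0.90 ± 0.14), were higher in hypothalamus. Cpe, carboxypeptidase E, was 2658 ± 109 CPM in thalamus and 1744 ± 124 in hypothalamus (0.61 ± 0.072). The list summed to 6231 to 6874 CPM in thalamus and 6137 to 6488 in hypothalamus.

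Receptors for peptides and hormones were higher in hypothalamus for 22 of 41 genes and in thalamus for 3 (all genes, 12.5% and 12.9%), with a median log2 fold change of -0.60. The 4 largest differences were those of Calcr, the calcitonin and amylin receptor (28.7, 40.9, 47.2 and 41.3 CPM in hypothalamus, 2.51, 1.06, 8.59 and 9.82 in thalamus), Brs3, an orphan bombesin-like receptor of energy balance (4.11, 6.31, 7.22 and 6.18 and 0.68, 0.355, 1.1 and 1.36), Esr1, estrogen receptor alpha (13.7, 15.2, 23.8 and 25.8 and 3.82, 2.13, 4.98 and 5.75), and Ghsr, the ghrelin receptor (3.71, 5.72, 7.31 and 11.8 and 1.32, 1.34, 2.24 and 1.81). In all 4, thalamic replicates 3 and 4 lay at or above replicates 1 and 2, except that Ghsr was highest in replicate 3. Feeding receptors outside the naming rule followed, with Mc4r, the melanocortin 4 receptor, at -1.78 ± 0.32 and Glp1r, the GLP-1 receptor, at -1.89 ± 0.20. Lepr, the leptin receptor, was 5.78 ± 1.69 and 4.28 ± 2.31 CPM and was called only without thalamic replicate 3 (-0.86, FDR 0.048). The 3 genes with the highest mean CPM over the 8 libraries, Ntsr2, Insr and Prlr, were not called. Prlr, the prolactin receptor gene, was called higher in hypothalamus without thalamic replicate 3 (-1.21, FDR 0.0014), with library totals alone (-0.90, FDR 0.036) and with upper-quartile scaling (-0.84, FDR 0.05). The receptors that were higher in thalamus were Vipr2 (1.42 ± 0.38) and Vipr1 (0.85 ± 0.20), both for the peptides VIP and PACAP, and the somatostatin receptor gene Sstr3 (0.41 ± 0.11). Sstr3 fell just under the size for a call without thalamic replicate 1 (0.32, FDR 0.039).

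Amine genes were led by histamine. Hdc, histidine decarboxylase, is the mark of the tuberomammillary neurons of the posterior hypothalamus, and it was 63.9, 66.3, 64.8 and 77.9 CPM in hypothalamus and 5.23, 7.8, 6.49 and 14.2 in thalamus (-3.01 ± 0.26, FDR = 4.8e-05). Slc18a2, the vesicular monoamine transporter, was 41.3, 50.5, 52.4 and 65.00 and 12.6, 4.1, 6.4 and 17.8 CPM (-2.35 ± 0.38). Ddc (-1.45 ± 0.13), Gch1 (-1.50 ± 0.34) and Th (-1.07 ± 0.21), enzymes of dopamine synthesis and its cofactor, were also higher in hypothalamus. Maob, which breaks down amines, was higher in thalamus, with 102, 123, 118 and 119 CPM against 48.1, 51.4, 52.7 and 52.3 (1.17 ± 0.068), whereas Maoa was 75.3 ± 10.95 and 68.2 ± 2.33 CPM and was not called. Of 13 genes in the list, 11 were tested, 5 were higher in hypothalamus and 1 in thalamus (all genes, 12.5% and 12.9%). Without thalamic replicate 3, 2 genes were called higher in thalamus. Markers of midbrain dopamine neurons summed to 115 to 206 CPM in thalamus and 121 to 156 in hypothalamus, against 54.1 to 76.2 in hippocampus libraries of Sham + VH mice at 3 dpi. Of 7 tested, Aldh1a1, a retinaldehyde dehydrogenase gene, was called higher in thalamus (102 ± 26.4 and 60.03 ± 13.8 CPM), except without thalamic replicate 1 (0.64, FDR 0.057) or 3 (0.67, FDR 0.058), and Th higher in hypothalamus. The dopamine transporter gene Slc6a3 was 23.5, 0.67, 1.19 and 3.21 CPM in thalamus and 5.73, 6.49, 4.82 and 8.48 in hypothalamus. Without hypothalamic replicate 1 or 2 or thalamic replicate 2, 2 of these markers were called higher in thalamus, and without thalamic replicate 1 or 4, 2 were called higher in hypothalamus.

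Imprinted genes, which are expressed from 1 parental allele and are abundant in the hypothalamus, were called in 1 direction. Of 29 tested, 16 were higher in hypothalamus (6 above 4-fold), none in thalamus and 13 were not called, beside 12.5% and 12.9% of all genes, with a median log2 fold change of -0.60. The 4 largest differences were Asb4 (25.9, 36.9, 50.8 and 87.00 CPM in hypothalamus, 5.48, 3.86, 8.68 and 11.3 in thalamus), Magel2 (95.1, 102, 135 and 137 and 18.3, 12.7, 22.8 and 30.01), Peg10 (510.4, 501, 616 and 548 and 90.4, 66.6, 126 and 147) and Rtl1 (17.8, 15.3, 22.3 and 22.5 and 3.31, 2.52, 5.48 and 6.21). Asb4 encodes a ubiquitin ligase adaptor, Magel2 lies in the Prader-Willi region, and Peg10 and Rtl1 derive from retrotransposons. Hypothalamic replicate 4 had the highest value of Asb4, Magel2 and Rtl1 but not of Peg10. Dlk1, which lies beside Rtl1 and encodes a Notch-like ligand, was 281, 276, 316 and 300.2 and 68.5, 27.5, 88.9 and 104 CPM (-2.02 ± 0.32). Ndn and Peg3, named after their values were seen, were 880.1 ± 16.2 and 1296 ± 161 CPM in hypothalamus and 409 ± 68.2 and 699 ± 135 in thalamus. The members with the highest mean CPM over the 8 libraries were Meg3, a long noncoding RNA (8123 ± 575 and 6576 ± 1047), and Gnas, which encodes a G protein subunit (2217 ± 271 and 1896 ± 116), neither of them called, and Nap1l5, a nucleosome assembly protein gene, which was higher in hypothalamus (-0.70 ± 0.13). Gnas and the Meg3 cluster hold overlapping transcripts, and how reads were assigned among them is not stated, so these values are less certain. Meg3 passed as higher in hypothalamus without thalamic replicate 4 (-0.40, FDR 0.016) and with library totals alone (-0.39, FDR 0.032).

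By the same limits, with at least 5 CPM in hypothalamus, the 10 largest differences toward hypothalamus were Nr5a1, Six6, Gpr50, Crabp1, Fezf1, E030019B13Rik, Bsx, Npvf, Col23a1 and Nkx2-1. Among all genes within these limits, those with the highest CPM in hypothalamus were Peg10, Avp, Dlk1, Irs4 and Arhgap36. Irs4, an insulin receptor substrate at chromosome X, 141710998 to 141725263, was 115, 149, 208 and 222 CPM in hypothalamus and 17.4, 10.6, 32.4 and 38.1 in thalamus (-2.82 ± 0.38, FDR = 0.00053). Arhgap36, a regulator of protein kinase A and Hedgehog signalling at chromosome X, 49463945 to 49500244, was 122, 151, 167 and 187 and 29.6, 11.5, 40.5 and 40.04 CPM (-2.37 ± 0.33). The transcript E030019B13Rik was 6.88, 12.5, 15.2 and 33.6 and 1.15, 0.197, 1.05 and 2.71 CPM. In Irs4 and Arhgap36, thalamic replicate 2 had the lowest thalamic value and replicates 3 and 4 the highest.

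Genes of inhibitory neurons were next. Of 6 genes for GABA synthesis, packaging and uptake, Gad2, Slc32a1 and Gad1 were higher in hypothalamus, as were 12.5% of all genes. Gad2, 1 of 2 GABA-making enzymes, was 564, 537, 549 and 430.2 CPM in hypothalamus and 286, 152, 266 and 194 in thalamus (-1.21 ± 0.19, FDR = 0.0011). Slc32a1, the vesicular GABA transporter, was 239, 181, 152 and 124 and 105, 50.1, 92.01 and 66.3 CPM (-1.15 ± 0.25). Gad1 was 443, 409, 396 and 384 and 300.6, 143, 259 and 114 CPM (-1.0 ± 0.27), and without thalamic replicate 2 it stood at the threshold, not called (-0.86, FDR 0.05). The uptake carrier gene Slc6a11 (-0.064 ± 0.062) and the degrading enzyme gene Abat (-0.26 ± 0.054) did not pass both limits. With library totals alone 5 of the 6 were called. Genes of the thalamic reticular nucleus, which is GABAergic, were mixed, with 4 of 10 higher in hypothalamus and 2 in thalamus (all genes, 12.5% and 12.9%). Pvalb, parvalbumin, was 77.2, 35.3, 53.98 and 10.2 CPM in thalamus and 18.98, 13.3, 6.39 and 16.5 in hypothalamus (1.68 ± 0.53, FDR = 0.036). Its groups overlapped, and it was not called without hypothalamic replicate 2, 3 or 4 or thalamic replicate 1, 2 or 3, with an FDR of 0.055 to 0.11. Col25a1, a membrane collagen, was also near the threshold (0.44 ± 0.14) and was not called without hypothalamic replicate 2, 3 or 4 or thalamic replicate 2 or 4 (FDR 0.055 to 0.072). Ecel1 (-1.81 ± 0.17), a peptidase, and Kit (-1.92 ± 0.35), a growth factor receptor, were higher in hypothalamus.

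GABA-A receptors, the pentameric chloride channels that GABA opens, differed between the regions subunit by subunit. Of 14 subunits tested, 3 were higher in thalamus, 7 in hypothalamus and 4 were not called, where 12.9% and 12.5% of all genes were called in those directions. Gabrd, the delta subunit of extrasynaptic receptors, at chromosome 4, 155384980 to 155398112, was 111, 103, 96.3 and 50.7 CPM in thalamus and 2.63, 1.06, 1.38 and 0.927 in hypothalamus (5.91 ± 0.35, FDR = 8.9e-06). Gabra4, the alpha4 subunit that pairs with delta, was 268, 284, 256 and 199 and 34.8, 34.3, 35.9 and 39.3 CPM (2.80 ± 0.11, FDR = 1.6e-06), and Gabrb2 384, 412, 386 and 356 and 224, 229.8, 201 and 176 (0.89 ± 0.09). On the other side, Gabre, the epsilon subunit, was 18.3, 23.4, 42.5 and 49.1 CPM in hypothalamus and 3.23, 2.88, 7.59 and 8.39 in thalamus (-2.60 ± 0.42). Gabrq, the theta subunit, was 95.3, 122, 153 and 154 and 20.6, 13.3, 37.02 and 47.1 CPM (-2.16 ± 0.35). Gabra2 (-0.62 ± 0.13), Gabra5 (-0.77 ± 0.14), Gabrg1 (-0.74 ± 0.13) and Gabrg3 (-0.63 ± 0.19) were also higher in hypothalamus. Per kb of exon, Gabra3 (43.01 CPM per kb) and Gabra4 (41.4) stood close together in thalamus, above Gabra5 (13.5) and Gabra2 (8.77). In hypothalamus Gabra3 stood at 39.5, and Gabra4 (5.93) was the lowest of these 4. Delta reached 31.4 CPM per kb in thalamus against 0.522 in hypothalamus, where theta stood at 24.5.

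**Figure D3:**
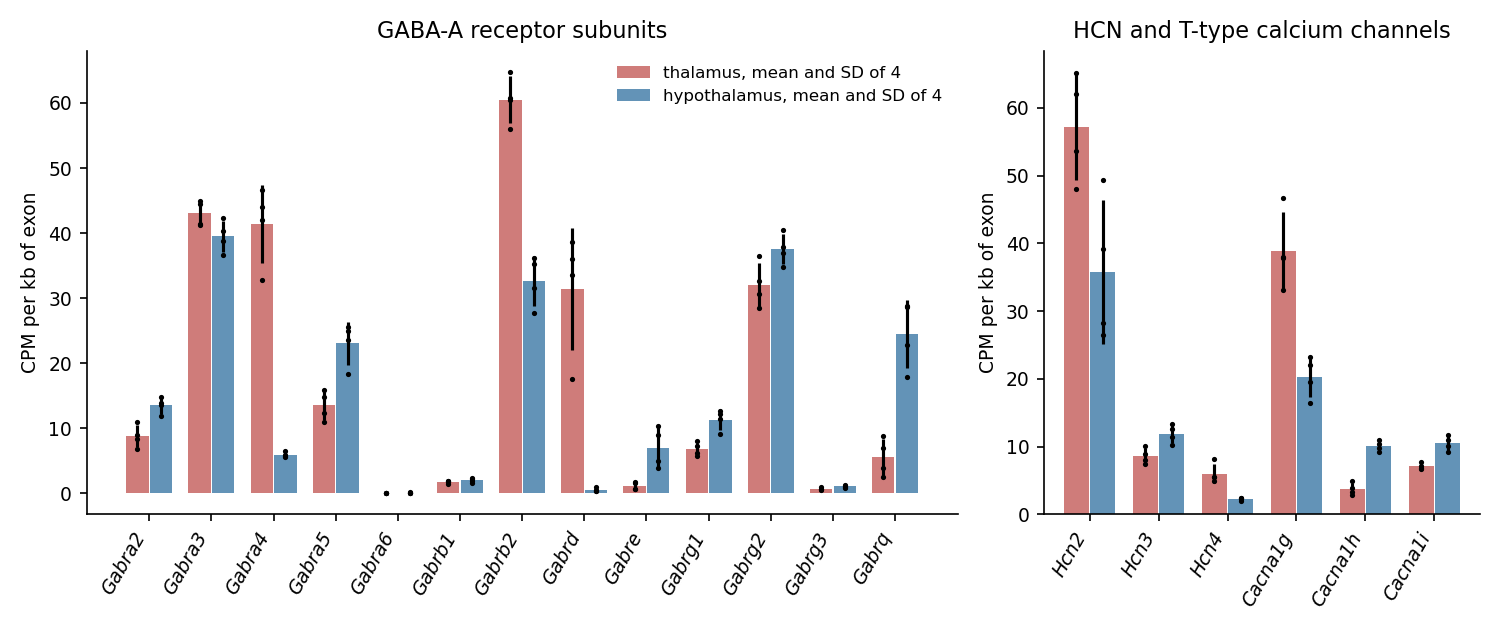
Mean CPM per kb of exon (y axis, linear from 0) of most GABA-A receptor subunits and HCN and T-type calcium channel genes in thalamus (red) and hypothalamus (blue), with bars for the SD of 4 Sham + VH libraries at 3 dpi and a dot for each library. Gabrd stands at 31.4 CPM per kb in thalamus and 0.522 in hypothalamus, and Gabrq is the reverse case with 5.51 and 24.5.

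The pacemaker and low-threshold channels that let thalamic neurons switch between tonic and burst firing were divided member by member. All 7 were called, 3 higher in thalamus and 4 in hypothalamus, beside 25.4% of all genes. Hcn4, a slow pacemaker channel, was 33.9, 49.7, 30.6 and 33.5 CPM in thalamus and 14.4, 12.1, 14.4 and 15.2 in hypothalamus (1.40 ± 0.15, FDR = 0.00016). Cacna1g, the T-type channel of relay neurons, was 385, 473, 336 and 384 and 236, 198, 224 and 166 CPM (0.94 ± 0.13). Hcn2 was higher in thalamus as well (0.68 ± 0.19), with overlapping groups, but not without thalamic replicate 1 (0.61, FDR 0.062), thalamic replicate 3 (0.64, FDR 0.06) or hypothalamic replicate 3 (0.58, FDR 0.066). Cacna1h was 101, 95.3, 108 and 90.6 CPM in hypothalamus and 38.3, 28.6, 33.00 and 47.7 in thalamus (-1.42 ± 0.14), and Cacna1i (-0.55 ± 0.084) and Hcn3 (-0.47 ± 0.11) were higher in hypothalamus too. Per kb of exon, Hcn2 stood at 57.2 CPM per kb in thalamus and 35.8 in hypothalamus, and Cacna1g was the most abundant T-type gene (38.9 and 20.3).

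Of 24 voltage-gated potassium channels, 8 were higher in thalamus and 3 in hypothalamus (all genes, 12.9% and 12.5%). Kcnc2, a fast delayed rectifier (Kv3.2), was 334, 331, 300.8 and 241 CPM in thalamus and 95.3, 83.8, 81.1 and 59.4 in hypothalamus (1.92 ± 0.15, FDR = 2.9e-05). Kcna2, an axonal channel (Kv1.2), was 333, 372, 333 and 316 and 241, 232, 203 and 222 CPM (0.59 ± 0.074). Higher in hypothalamus were Kcnh4 (-1.68 ± 0.20), Kcna5 (-1.51 ± 0.19) and Kcnh1 (-1.47 ± 0.22). Without hypothalamic replicate 3, 5 channels were called higher in thalamus, and without thalamic replicate 4, 5 were called higher in hypothalamus. Of 17 ionotropic glutamate receptor subunits, 4 were higher in hypothalamus, 2 in thalamus and 11 were not called, beside 25.4% of all genes called. Grin2c, an NMDA receptor subunit, was 97.5, 86.7, 67.6 and 58.1 CPM in thalamus and 36.4, 31.5, 27.9 and 26.8 in hypothalamus (1.34 ± 0.17). The other was Grin2a (0.92 ± 0.28), which was low in thalamic replicate 1 and lost its call without hypothalamic replicate 1 or 2 or thalamic replicate 2, 3 or 4 (FDR 0.061 to 0.08). Grik3, a kainate receptor subunit (-1.07 ± 0.12), and Gria2, the calcium-limiting AMPA subunit (-0.57 ± 0.13), were higher in hypothalamus. With library totals alone, 8 subunits were higher in hypothalamus.

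**Figure D4:**
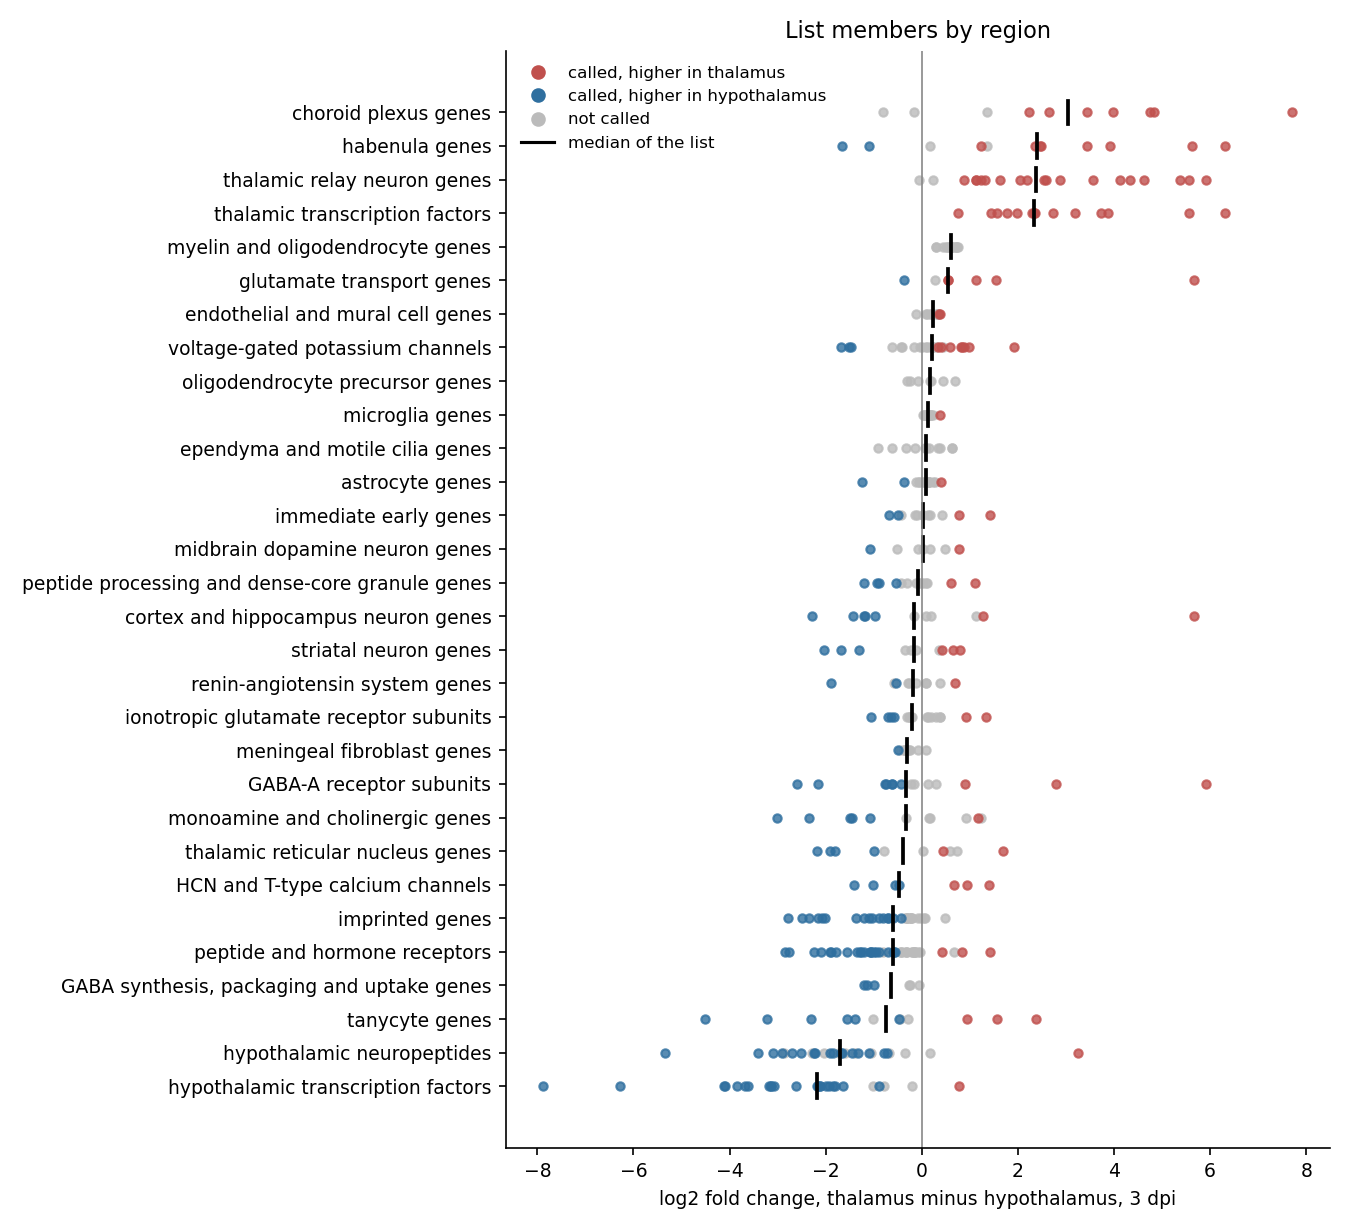
Log2 fold change of thalamus minus hypothalamus at 3 dpi (x axis) for each tested member of the lists with at least 5 tested genes (y axis, ordered by the median, black line), red and blue where the gene was called higher in thalamus or hypothalamus and grey where not. Medians run from -2.17 for hypothalamic transcription factors to 3.05 for choroid plexus genes.

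Genes of the renin-angiotensin system are of interest here as the system that candesartan acts on. Of 12 with a row, 10 were tested, 2 were higher in hypothalamus, 1 in thalamus and 7 were not called, beside 25.4% of all genes called. Agtr1a, the AT1 receptor that candesartan blocks, was 1.98, 2.46, 2.95 and 2.71 CPM in hypothalamus and 0.425, 0.394, 0.868 and 1.03 in thalamus (-1.90 ± 0.31, FDR = 0.0015). The groups did not overlap, but all 8 values were low, and thalamic replicates 3 and 4 were above 1 and 2. Agtrap, which encodes a protein that binds the receptor's tail, was 22.7 ± 2.12 and 15.6 ± 2.07 CPM (-0.54 ± 0.11). Atp6ap2, the (pro)renin receptor and a proton pump accessory subunit, was 355, 315, 322 and 270.3 CPM in thalamus and 199.7, 207, 193 and 181 in hypothalamus (0.69 ± 0.085). Agt, angiotensinogen, made by astrocytes, was 302 ± 18.1 and 329 ± 59.8 CPM and was not called (-0.12 ± 0.12, FDR = 0.47). Ace was 46.5 ± 17.7 and 55.6 ± 7.64 CPM, highest in thalamic replicate 3, where choroid plexus genes peaked too. Agtr2 (-0.58 ± 0.28) and the angiotensin-cleaving peptidase genes Enpep (0.38 ± 0.14), Mme (0.089 ± 0.20) and Lnpep (-0.28 ± 0.19) were not called. Agtr1b reached at most 0.411 CPM and Mas1 at most 0.863, and neither was tested. At 29 dpi 3 genes of the list were higher in thalamus and 3 in hypothalamus (all genes, 17.6% and 16.9%). Among them were Enpep, higher in thalamus (0.63 ± 0.13, FDR = 0.0019), and Agt, higher in hypothalamus (-0.48 ± 0.067, FDR = 0.00016). Neither of these 2 genes is shown to differ between the cohorts.

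Of 14 astrocyte genes, 3 were called, beside 25.4% of all genes. Gfap, the astrocyte intermediate filament, was 286, 283, 231 and 163 CPM in hypothalamus and 102, 119, 103 and 85.00 in thalamus (-1.24 ± 0.17, FDR = 0.00068), and Aqp4, the water channel, 125, 134, 121 and 138 and 142, 194, 182 and 170.05 (0.41 ± 0.094). Aqp4 lost its call with library totals alone (0.32, FDR 0.031) and with all 48 libraries in the fit (0.42, FDR 0.057), whereas Gfap kept it under every alternative. Aldoc (0.15) and Ndrg2 (0.041), 2 of the most abundant astrocyte genes, were not called. Of 12 microglia genes, Trem2, a lipid receptor, was called (0.39 ± 0.11), but not without hypothalamic replicate 2 or 3 or thalamic replicate 1 (FDR 0.054 to 0.072), and Csf1r (0.10) and Cx3cr1 (0.052) were not. Of 12 endothelial and mural genes, Cldn5, a tight junction protein of brain endothelium, was 19.4, 17.2, 16.04 and 19.2 CPM in thalamus and 13.5, 13.5, 14.9 and 13.6 in hypothalamus (0.37 ± 0.084), and the organic anion carrier gene Slco1a4 was called as well (0.37 ± 0.085). Neither was called with library totals alone, and Slco1a4 was not called without hypothalamic replicate 2 (0.32, FDR 0.017).

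Myelin genes had large differences in mean and a wide spread within the hypothalamus. None of 14 was called, beside 25.4% of all genes, and all 14 had a positive log2 fold change, with a median of 0.61. Mbp, myelin basic protein, was 5304, 3861, 4729 and 2783 CPM in thalamic replicates 1 to 4 and 4361, 2852, 1717 and 1216 in hypothalamic replicates 1 to 4 (0.72 ± 0.36, FDR = 0.16). Mobp was 1850.2, 1311, 1544 and 867 and 1472, 965, 572 and 353 CPM. Both genes ran in parallel, lowest in replicate 4 of each region. Without hypothalamic replicate 1, 13 of the 14 were called higher in thalamus, with all 48 libraries of 3 dpi in the fit 11 were, and at 29 dpi all 14 were. Of 7 oligodendrocyte precursor genes none was called, and without hypothalamic replicate 1, 2 were called higher in thalamus. Without hypothalamic replicate 4, 1 was called higher in hypothalamus. Bcas1, which marks newly forming oligodendrocytes, was 260.4 ± 55.6 and 160.3 ± 70.5 CPM, Olig1 147 ± 24.5 and 128 ± 43.1, and Pdgfra 71.98 ± 1.73 and 84.9 ± 7.25. DESeq2 called 2 of the 14 myelin genes and none of the precursor genes.

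Habenula genes varied among the thalamic libraries. The habenula is a small nucleus above the thalamus, and how much of it each library held was not tested. Of 12 genes, 8 were higher in thalamus (7 above 4-fold) and 2 in hypothalamus (all genes, 12.9% and 12.5%). Pou4f1, a POU homeobox gene of medial habenula neurons, was 3.78, 27.9, 6.03 and 12.7 CPM in thalamic replicates 1 to 4 and 0.216, 0.183, 0.0922 and 0.137 in hypothalamus. Gpr151, an orphan receptor of habenular axons, was 12.6, 68.8, 21.1 and 32.8 and 0.576, 0.477, 1.26 and 0.343 CPM, Chrnb4, a nicotinic receptor subunit, 7.86, 42.8, 8 and 24.5 and 1.69, 1.61, 1.08 and 1.17, and Nwd2 38.4, 231, 58.00 and 123 and 21.9, 23.2, 21.9 and 15.1. In all 4 the order of the thalamic libraries was the same, replicate 2 first, then 4, 3 and 1. Gm5741, at chromosome 8, 85067568 to 85067982, had the largest log2 fold change toward thalamus within the limits given above (8.02 ± 0.96). It had the same order, with 5.1, 29.5, 6.44 and 17.4 CPM in thalamus. It was counted in 1 of the 4 hypothalamic libraries. Lrrc55 (1.24 ± 0.37) overlapped between the regions and was not called without hypothalamic replicate 1, 2, 3 or 4 or thalamic replicate 2 or 4 (FDR 0.054 to 0.073). The 2 members that were higher in hypothalamus were Tac1 (-1.67 ± 0.16) and the Wnt agonist gene Rspo2 (-1.10 ± 0.33). Rspo2 was not called without hypothalamic replicate 2 or 4 or thalamic replicate 1, 2 or 3 (FDR 0.063 to 0.08). With thalamic replicates 2 and 4 left out, all 4 were called with smaller log2 fold changes, 6.31 going to 4.94 for Pou4f1, 5.63 to 4.63 for Gpr151, 3.91 to 2.52 for Chrnb4 and 2.46 to 1.23 for Nwd2.

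Choroid plexus genes were uneven among the thalamic libraries. Of 10 tested, 7 were higher in thalamus (all genes, 12.9%), all of them above 4-fold, and the summed level of the list was 1229, 95.1, 3672 and 59.5 CPM in thalamic replicates 1 to 4 against 81.9, 98.7, 115 and 118 in hypothalamus. Ttr, transthyretin, the main secreted protein of choroid plexus epithelium, was 1067, 41.4, 3305 and 8.18 CPM in thalamus and 3.85, 6.75, 3.2 and 7.38 in hypothalamus (7.71 ± 1.72, FDR = 0.0078). The lowest thalamic value lay just above the highest hypothalamic one, and with hypothalamic replicates 3 and 4 left out Ttr was not called (7.70, FDR 0.053). Slc4a5, a bicarbonate transporter of the same epithelium, was 8.96, 1.22, 20.2 and 0.781 and 0.216, 0.367, 0.215 and 0.275 CPM, and Folr1, a folate receptor, 6.59, 1.66, 25.8 and 1.36 and 0.036, 0.0733, 0.922 and 1.13. Kcnj13, a potassium channel, was 6.93, 0.433, 27.1 and 0.205 and 0.216, 0.33, 0.307 and 0.412 CPM, so that thalamic replicate 4 lay just below all 4 hypothalamic libraries. Without thalamic replicate 3 the list had 3 calls higher in thalamus and 1 higher in hypothalamus. Without hypothalamic replicate 2 it had 3 calls higher in thalamus, and without hypothalamic replicate 3 it had 4. Folr1 then stood at 2.53, FDR 0.074 without thalamic replicate 3 and 3.65, FDR 0.053 without hypothalamic replicate 2. Kcnj13 stood at 2.97, FDR 0.071 without thalamic replicate 3, 4.78, FDR 0.056 without hypothalamic replicate 2 and 4.74, FDR 0.065 without hypothalamic replicate 3. With thalamic replicates 1 and 3 left out, the log2 fold change of Kcnj13 was 0.025, FDR 0.98. Clic6, a chloride channel gene, was 26.9, 9.54, 44.4 and 10.97 CPM in thalamus and 17.3, 22.6, 28.6 and 33.5 in hypothalamus and was not called. The part of choroid plexus content in the other differences was not tested.

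Genes of the ventricular wall split the hypothalamic libraries. The tanycyte list summed to 123, 130.03, 240.2 and 419 CPM in hypothalamic replicates 1 to 4 and 129 to 148 in thalamus, and of 12 tested members 6 were higher in hypothalamus and 3 in thalamus (all genes, 12.5% and 12.9%). Gpr50, an orphan receptor of tanycytes, was 4.9, 7.81, 23.7 and 53.1 CPM in hypothalamus and 0.68, 0.394, 1.37 and 1.52 in thalamus (-4.50 ± 0.82, FDR = 0.0026). Col23a1, a membrane collagen, was 8.79, 10.05, 40.5 and 92.2 and 4.21, 4.26, 4.02 and 3.74 CPM (-3.22 ± 0.73), Crym, a thyroid hormone-binding protein gene, 2.41, 2.57, 4 and 9.61 and 1.83, 0.67, 0.823 and 0.452 (-2.30 ± 0.55), and Crabp1, a retinoic acid-binding protein gene outside the list, 1.37, 1.14, 6.48 and 21.5 and 0.297, 0.473, 0.411 and 0.288 (-4.36 ± 1.0). All 4 peaked in hypothalamic replicate 4. With hypothalamic replicates 3 and 4 left out, all 4 were called but with far smaller log2 fold changes, -2.68 for Gpr50, -1.21 for Col23a1, -1.40 for Crym and -1.75 for Crabp1. With thalamic replicates 2 and 4 left out, Col23a1 (-3.20, FDR 0.068), Crym (-1.80, FDR 0.087) and Crabp1 (-4.41, FDR 0.07) were not, and with thalamic replicates 1 and 3 left out Col23a1 (-3.23, FDR 0.09) and Crabp1 (-4.30, FDR 0.097) were not. Rax, a homeobox gene that defines tanycytes, was 0.216, 0.0367, 2.49 and 6.21 CPM in hypothalamus and at most 0.0822 in thalamus and did not pass the filter on low counts. The members that were higher in thalamus, Adm (2.39 ± 0.31), Lhx2 (1.57 ± 0.25) and Dio2 (0.93 ± 0.25), are also expressed outside tanycytes, Dio2 by astrocytes and Lhx2 in the thalamus. Dio2 was not called without hypothalamic replicate 3 or thalamic replicate 1 or 3 (FDR 0.052 to 0.053). Of 11 tested genes of ependyma and motile cilia none was called at 3 dpi, beside 25.4% of all genes. Ccdc153, which encodes a ciliary protein, was 0.072, 0.367, 17.5 and 28.1 CPM in hypothalamic replicates 1 to 4 and 10.7, 18.5, 13.5 and 17.8 in thalamus, and Foxj1, the regulator of motile cilia, 10.9, 9.35, 29.1 and 43.9 and 22.3, 34.1, 31.3 and 31.2. For both genes hypothalamic replicates 1 and 2 thus lay below all 4 thalamic libraries, replicate 3 among them and replicate 4 above them. Without hypothalamic replicates 3 and 4, 9 of the ciliary genes were called higher in thalamus, and without replicates 1 and 2, 6 were called higher in hypothalamus. Leaving out hypothalamic replicate 1 alone gave 1 call, higher in hypothalamus, as did DESeq2.

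Pituitary genes peaked in replicate 4 of both regions. The list summed to 4.39, 9.57, 42.6 and 549.9 CPM in hypothalamus and 2.42, 2.52, 2.19 and 148 in thalamus. Gh, growth hormone, was 0.612, 1.14, 0.522 and 305 CPM in hypothalamic replicates 1 to 4 and 0.34, 0.433, 0.0457 and 102 in thalamic replicates 1 to 4. Prl, prolactin, was 0.144, 0.147, 0.184 and 50.6 and 0, 0.118, 0 and 15.6 CPM. Of 3 tested members, Gh, Pomc and Lhb, none was called, beside 25.4% of all genes. Without thalamic replicate 4, 2 were called higher in hypothalamus, and 1 without thalamic replicate 1, 2 or 3 or hypothalamic replicate 1. DESeq2 called 1, and the fit of all 48 libraries called 2. Genes of blood cells peaked in thalamic replicate 2 instead. The haemoglobin genes Hba-a2 and Hbb-bs, whose near-identical copies may share reads, were 17.8, 67.6, 7.82 and 10.1 and 16.1, 54.9, 8.09 and 8.02 CPM in thalamus and 16.8, 12.6, 13.3 and 5.25 and 11.1, 9.83, 10.1 and 4.84 in hypothalamus, and neither was called.

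The counts of 4 remaining lists stand beside the 25.4% of all genes called in either direction. Of 12 immediate early genes, Ier2 (1.41 ± 0.16) and Dusp1 (0.77 ± 0.15) were higher in thalamus and Junb (-0.69 ± 0.19) and Npas4 (-0.49 ± 0.14) in hypothalamus. Junb was not called without hypothalamic replicate 3 (-0.58, FDR 0.064) or thalamic replicate 1 (-0.58, FDR 0.051) or 2 (-0.64, FDR 0.056). Npas4 was not called without hypothalamic replicate 3 (-0.47, FDR 0.064) or 4 (-0.44, FDR 0.055) or thalamic replicate 1 (-0.50, FDR 0.052). Arc, Egr1 and Jun were not called. Of 10 meningeal fibroblast genes, Col1a2, a collagen gene, was higher in hypothalamus (-0.50 ± 0.11), and without thalamic replicate 1, 2 members were. Among 10 striatal neuron genes, Rgs9 (-1.30 ± 0.20), Gpr6 (-2.04 ± 0.26) and Penk were higher in hypothalamus, and Pde10a (0.43 ± 0.10), Rasd2 (0.66 ± 0.089) and Ppp1r1b (0.79 ± 0.21) in thalamus. Ppp1r1b was not called without hypothalamic replicate 3 (0.70, FDR 0.053). Of 11 tested genes of cortical and hippocampal neurons, 5 were higher in hypothalamus and 2 in thalamus. Lmo3, a LIM-only transcription cofactor gene, was 38.5 ± 6.24 CPM in hypothalamus and 16.8 ± 4.08 in thalamus (-1.19 ± 0.17), and Nptx1, a secreted synaptic pentraxin gene, 157 ± 30.6 and 69.5 ± 10.5 (-1.18 ± 0.15).

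The regional differences recurred in the 29 dpi cohort. There, 5775 of 16771 genes were called (34.4%), 2944 higher in thalamus (17.6%) and 2831 in hypothalamus (16.9%). Of the 2145 genes higher in thalamus at 3 dpi, 2134 were tested at 29 dpi and 1947 were called the same way, which is 91.2% of those tested and 66.1% of the 29 dpi calls in that direction. Of the 2080 higher in hypothalamus, 2075 were tested and 1785 were called the same way, 86.0% of those tested and 63.1% of the 29 dpi calls. None was called the other way. Of the genes above 4-fold, all 222 tested of the thalamic set and 112 of 115 of the hypothalamic set were called again. Prkcd (5.48 ± 0.22), Slc17a7 (5.68 ± 0.24), Gabrd (5.48 ± 0.24) and Tcf7l2 (3.01 ± 0.14) were again higher in thalamus, and Nr5a1 (-8.56 ± 0.25), Hdc (-3.29 ± 0.22), Magel2 (-3.06 ± 0.29) and Agtr1a (-2.45 ± 0.22) in hypothalamus.

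Several genes that were uneven and not called at 3 dpi were called at 29 dpi. Oxt was 179 ± 17.1 CPM in hypothalamus and 5.56 ± 7.61 in thalamus at 29 dpi (mean ± SD, n = 4 each), a log2 fold change of -5.20 ± 0.58 (FDR = 2.9e-05), where at 3 dpi it had been -1.73 ± 0.73. Pomc was uneven there too, at 111 ± 152 CPM in hypothalamus and 1.27 ± 0.396 in thalamus (-6.51 ± 1.06, FDR = 0.00045), and the pituitary gene Gh was 17.7 ± 32.5 and 0.371 ± 0.404 CPM and called as well (-5.61 ± 1.61, FDR = 0.014). The log2 fold change of Mbp was 1.03 ± 0.08 (FDR = 2.1e-06). Pmch was not called in either cohort (-1.0 ± 0.41 at 29 dpi, FDR = 0.063). Of the neuropeptides, 27 were higher in hypothalamus at 29 dpi against 17 at 3 dpi, and of the receptors 29 against 22. Over all genes, calls higher in hypothalamus rose too, from 12.5% at 3 dpi to 16.9% at 29 dpi. A test of the difference itself, the interaction of region with cohort over 17179 genes, called 0 genes (0%) by edgeR. Before adjustment 474 genes had p under 0.05, and the lowest FDR was 0.9997. A gene called in 1 cohort and not in the other, such as Oxt, is therefore not shown to differ between them. The cohorts differ in time, route of vehicle and library, which cannot be told apart.

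**Figure D5:**
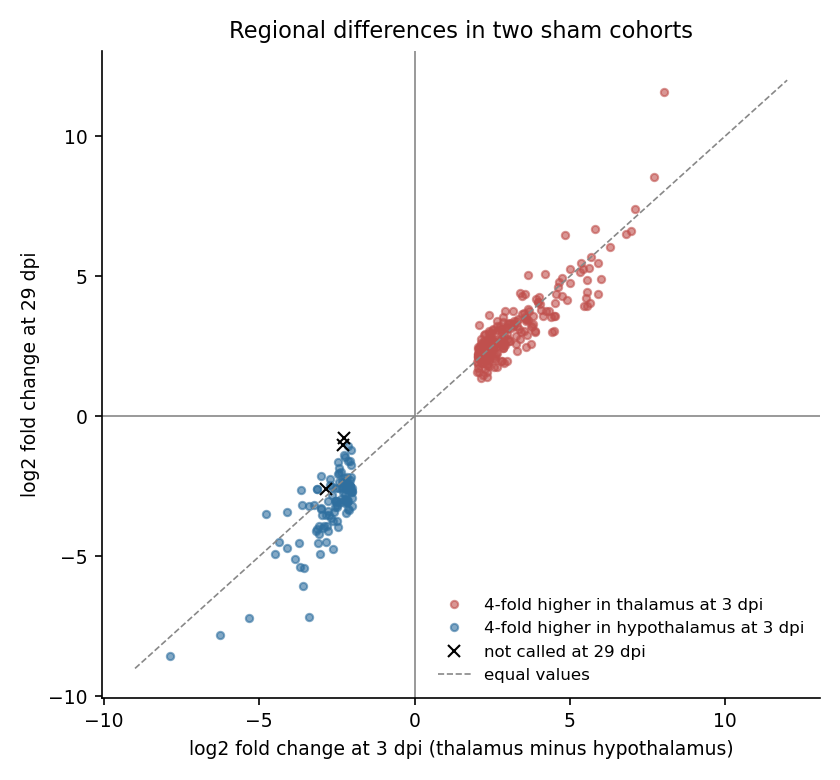
Log2 fold change of thalamus minus hypothalamus at 3 dpi (x axis) and at 29 dpi (y axis) for the genes above 4-fold at 3 dpi that were tested in both Sham + VH cohorts, with the dashed line where the values are equal and crosses for genes not called at 29 dpi. Points were chosen by their 3 dpi value, and 3 of the 115 hypothalamic genes were not called at 29 dpi.

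The genes above 4-fold had a lower median level than all genes tested. Their median level over the 8 libraries was 4.37 CPM for those higher in thalamus and 3.44 CPM for those higher in hypothalamus, against 19.99 CPM over all genes tested. This level includes the region where such a gene is low, so choosing genes by size itself lowers it. The annotation placed 206 of 226, 109 of 115 and 14761 of 16651 genes. Their median exon length was 3855 bp (higher in thalamus), 3421 bp (higher in hypothalamus) and 4396 bp (all), and the median span on the genome 22.9, 13.8 and 24.9 kb. Protein-coding genes made up 95.6%, 99.1% and 95.4%. These are descriptions of the sets, without a test.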

How the data were processed

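RNA from the ipsilateral thalamus and hypothalamus of sham mice was compared at 3 dpi, with the same regions at 29 dpi as a second cohort. The authors aligned reads to mm10 with MapSplice and deposited raw counts per gene from HTSeq 0.9.1. The annotation and the strand setting are not given in the sources used here. Groups were taken from the sample labels. Counts were analysed with edgeR 4.0.16 in R 4.3.3 (limma 3.58.1): default filter on low counts, TMM scaling, and the quasi-likelihood test, with p-values adjusted over all genes tested (Benjamini-Hochberg). CPM are per TMM-scaled library, and the SE is the log2 fold change divided by the root of F. Of 32594 genes listed, 9285 were at 0 in all 8 libraries. Lengths and positions are from GENCODE vM21 (GRCm38), matched by symbol for 70.5% of genes, and promoter windows from RefSeq.

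The comparison and the 33 gene lists were chosen with earlier results of these data known. Named genes were the 10 largest differences per direction among genes above 4-fold whose regions did not overlap and whose mean in the higher region reached 5 CPM, the 5 per direction with the highest CPM among all genes within those limits, and, per list, the 4 called members with the largest difference and the 3 with the highest mean CPM over the 8 libraries, all members of lists of up to 7 genes and all renin-angiotensin genes. Another 56 list members were named after their values were seen. Alternatives were DESeq2 1.42.0, other scalings and filters, all 48 libraries at 3 dpi in the fit, a test against 4-fold, the replicate number as a block, and each library left out. Leaving out pairs of libraries was added after seeing the data. Some list members are counted but not reported here.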

Additional observations from a re-analysis of the deposited data

Results flagged for a closer look

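In a group of 4 libraries, a value was singled out when its gap to the nearest other value, divided by the range of the group, exceeded Dixon's 95% critical value. Of 482 groups over 241 named genes, 32 did, and chance alone gives about 1 in 20. All values are CPM at 3 dpi, and the causes were not tested.

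Thalamic replicate 2 was the highest thalamic library for Tcf7l2 (347), Zic1 (309), Prox1 (61.3) and Lhx2 (24.1), all transcription factors, and for the sum of thalamic transcription factors (1727). It was also highest for Slco1a4 (40.1), Enpep (4.02), Hba-a2 (67.6) and the sum of blood cell genes (125), and lowest for Penk (17.3).

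Replicate 4 of both regions stood apart in pituitary hormones. Gh was 102 in the thalamic and 305.0 in the hypothalamic library, Prl 15.6 and 50.6, and the pituitary sum 148 and 549.9. Thalamic replicate 4 was also highest for Pomc (27.4), Npvf (2.01) and Adcyap1 (58.8), and lowest for Slc1a1 (123). Hypothalamic replicate 4 was lowest for Foxp2 (15.5), Kcnh1 (40.1), Necab1 (46.0) and Nwd2 (15.1).

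Hypothalamic replicate 1 was highest for Ramp3 (9.90), Gm5741 (0.216), Gpr17 (107), Slc2a1 (101) and the sum of thalamic reticular nucleus genes (992), and lowest for Ndn (856) and Scg2 (1079). Thalamic replicate 1 was highest for Sstr3 (22.0) and Trem2 (9.64) and lowest for Grin2a (2.68). Thalamic replicate 3 was highest of its group for Hmx2 (0.229) and Hmx3 (0.411), and hypothalamic replicate 3 for Cldn5 (14.9).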

How the results depend on the processing

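The count of 4225 genes called at 3 dpi ranged from 3487 to 4738 without 1 library (1887 to 2466 higher in thalamus, 1600 to 2298 in hypothalamus), and that of 341 genes above 4-fold from 321 to 423 (217 to 268 and 104 to 162). No gene called in either direction was called in the other under any alternative. Without the filter on low counts 529 genes passed 4-fold, 340 higher in thalamus and 189 in hypothalamus. A test against a 4-fold difference, in place of a limit on the estimate, left 78, of which 72 were higher in thalamus and 6 in hypothalamus. With hypothalamic replicates 1 and 2 left out, 180 genes were above 4-fold in hypothalamus, and with replicates 3 and 4 left out 382 were in thalamus. With thalamic replicates 1 and 3 left out, 1230 genes were called higher in hypothalamus, and the choroid plexus gene F5 turned from 3.45 to -0.16. At 29 dpi, 5391 to 6117 genes were called without 1 library, and the interaction called 0 throughout.

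Whether the replicate numbers pair the samples was not shown, with same-number correlations of 0.349, -0.172, -0.0185 and 0.219 at 3 dpi, and the labels do not say what a number marks. With the number as a block, 4291 genes were called at 3 dpi (2224 higher in thalamus, 2067 in hypothalamus), 342 above 4-fold (223 and 119) and 5755 at 29 dpi (2915 and 2840). Under this block 12 myelin genes were called, and Ttr was not (5.33, FDR 0.079). Kcnj13 (3.59, FDR 0.062), F5 (2.65, FDR 0.12), Pvalb (1.51, FDR 0.069) and Col25a1 (0.41, FDR 0.056) lost their calls as well. Gh (-1.55, FDR 0.0005), Pomc (-3.01, FDR 0.0022) and Prlr (-0.90, FDR 0.015) were called higher in hypothalamus.

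Of 179 named genes that were called, 149 were called in every alternative fit that tested them (those without pairs of libraries aside), and 26 were lost without 1 library. With all 48 libraries of 3 dpi in the fit, Six3 was called as well (-0.77, FDR 0.02), Cldn5 (0.38, FDR 0.091) and Col1a2 (-0.49, FDR 0.14) were not, 5 potassium channel genes were higher in hypothalamus, and of the midbrain markers 3 were higher in thalamus and 2 in hypothalamus. With library totals alone, Trem2 (0.30, FDR 0.066) and Nhlh2 (0.68, FDR 0.068) were not called. Genes below about 1 CPM, such as Agtr1b, Mas1 and Olig3, rest on few counts.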
